A study of Mus musculus with 21 samples.

Results

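Ribosome biogenesis and nucleolar genes were examined in mouse hematopoietic stem cells (HSCs). The 52 genes were chosen by symbol, as proteins of the nucleolus and of ribosome assembly, and all 52 were among the 21000 gene symbols of the count table. They comprised 6 genes of RNA polymerase I transcription, 7 of nucleolar proteins and chaperones, 4 of box C/D and 4 of box H/ACA small nucleolar ribonucleoproteins (snoRNPs), 16 of 40S assembly and 15 of 60S assembly. The rule used no measured value, but the genes were chosen with earlier results of these data known. All 52 passed the filter on low counts in every comparison.

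RNA sequencing was performed on 21 libraries, 3 in each of 7 groups, made from HSCs of wild-type C57BL/6 mice that were sorted by surface stain (c-Kit+ Sca-1+ and Lineage-, with CD150+ and CD48-). Libraries of PBS-treated and 5-FU-treated mice were made from 3000 to 3500 HSCs each, and the number was not given for old mice. The treated mice were 10 weeks old and received 5-fluorouracil (5-FU, a cytotoxic drug) at 150 mg/kg or its vehicle PBS by the intraperitoneal route. After 1 administration, HSCs were isolated on day 6 (5 days later) from PBS-treated and 5-FU-treated mice, and on day 21 (20 days later) from 5-FU-treated mice only. After 3 administrations at intervals of 21 days, HSCs were isolated on day 6 after the last PBS or 5-FU and on day 21 after the last 5-FU. The 7th group came from untreated mice aged 2 years, 1 mouse per library. For 5-FU-treated mice on day 6 the study left the Mac-1 antibody out of the lineage stain and widened the gate to c-Kit-dim cells, so that treatment and gate cannot be told apart in these cells. The gate was not widened at other times, so day and gate cannot be told apart between day 6 and day 21 after 5-FU either. The columns of the 6 libraries isolated on day 6 after 1 administration carry a suffix of unstated meaning that the other 15 lack, and comparisons across this boundary differ in it too. The methods speak of 3 independent experiments and a legend of pooled material, so that p-values measure the spread between these libraries, which may in part be technical.

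The deposited values were whole-number read counts per gene symbol, with 22184885 to 38649033 counts per library (median 26962256). Levels are given as CPM, the standard read count normalised to library size, with TMM factors of edgeR over the 21 libraries. A signal of 3 counts corresponded to 0.0776 to 0.135 CPM. The least abundant of the ribosome biogenesis and nucleolar genes lay far above it in all libraries. Some marker genes of other cell types, described at the end, did not reach it in some groups. Within a group, no library was a copy of another. The chi-square per degree of freedom between such libraries was 16.1 to 36.0, where sampling of reads alone gives a value near 1. Pairs across groups were not compared this way. Tests are the quasi-likelihood F test of edgeR, fitted on all genes with Benjamini-Hochberg adjustment over all genes tested, with a threshold of 0.05. A log2 fold change is given with its standard error (SE).

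Ribosomes are assembled in the nucleolus, where RNA polymerase I transcribes a long precursor of the ribosomal RNAs (rRNAs). Box C/D and box H/ACA snoRNPs methylate and pseudouridylate this precursor, nucleases cut it, and many assembly factors fold it with ribosomal proteins into the 40S and 60S subunits. Metabolites of 5-FU are built into RNA and are known to disturb rRNA processing, and HSCs at rest are known for low protein synthesis. The libraries were primed on poly(A) tails, so the values below are messenger RNA levels of the genes for this machinery, and neither rRNA nor its processing was measured.

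In PBS-treated HSCs isolated on day 6 after 1 administration, the genes covered a wide range of levels per kilobase of the longest annotated transcript. The chaperone gene Npm1 had the highest level, 432 ± 12 CPM per kilobase (SD, n = 3). It was followed by Ubtf, which encodes the upstream binding factor of the rRNA genes, with 270 ± 26.7 CPM per kilobase (SD, n = 3), and by the pseudouridine synthase gene Dkc1 with 171 ± 12.1 CPM per kilobase (SD, n = 3). The differences among these 3 genes exceeded their spread. At the other end, Noc3l (2.60 ± 0.734 CPM per kilobase, SD, n = 3) and Utp20 (2.83 ± 0.423 CPM per kilobase, SD, n = 3) did not differ beyond their spread.

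Reads of some of these genes cannot be assigned with certainty, because the counting program and its treatment of reads with several alignments are not stated. A stretch of at least 75 bases with at least 98% identity to a transcript of another annotated gene was found in 17 of the 52. It covered 87.8% of the longest Ddx18 transcript, 63.4% of Npm3 and 59.1% of Mrto4, each matched by a pseudogene, and 8.14% of Npm1, matched by Zfp605. The library kit does not mark strand, so reads from overlapping genes on opposite strands are also mixed. Such overlaps covered 32.3% of the exonic bases of Tsr1 (with Srr), 20.9% of those of Noc2l (with Samd11) and 9.37% of those of Bysl (with Ccnd3).

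The sequences before the start sites are shown because many of the genes rose together on day 6 after 5-FU, as described below. Promoter windows from RefSeq on GRCm38.p6, from 250 bases before to 50 bases after a gene's start, were at hand for 47 of the 52 genes (56 windows, with alternative starts), and the other 5, among them Npm1, had none. Both strands were searched for 5 motifs. The E-box CACGTG, bound by MYC and its partner MAX, was found in 19.6% of the 56 windows and in 8.03% of 20488 windows of all genes. The GC box GGGCGG was found in 75% of the windows against 47.6% of all, and the core CCGGAAG bound by ETS factors in 32.1% against 11.9%. The TATA box TATAAA was found in 3.57% against 12.4%, and the palindrome of 10 bases bound by NRF1 in 0 windows against 1.38%. The median GC content was 59.5% in these windows and 57% in all. Among genes with a window, the E-box was present in 4 of the 13 that rose on day 6 after 1 administration of 5-FU and in 7 of the 34 that did not pass the threshold. The GC box was present in 10 of the 13 and in 27 of the 34. These matches describe letters and not bound sites, and were not tested.

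The promoters of 5 genes are printed, those of the genes with the smallest p-values on day 6 whose stretch of 120 bases before the start lay clear of the annotated gene. Each is read 5′ to 3′ on the strand of the gene and ends at the base before the start, and capitals mark a motif match. Nolc1 (chr19:46075727-46075846, plus strand) held 2 GC boxes and an ETS core. Utp18 (chr11:93885767-93885886, minus strand) held an E-box, a GC box and an ETS core, and Gar1 (chr3:129831397-129831516, minus strand) held an ETS core. Mrto4 (chr4:139352577-139352696, minus strand) and Dkc1 (chrX:75095734-75095853, plus strand) held no match in these 120 bases. Outside them, the promoter window of Dkc1 held a TATA box. No printed match overlapped another.
Nolc1: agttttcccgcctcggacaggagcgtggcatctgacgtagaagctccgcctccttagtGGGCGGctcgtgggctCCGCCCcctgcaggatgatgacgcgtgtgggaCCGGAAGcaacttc
Utp18: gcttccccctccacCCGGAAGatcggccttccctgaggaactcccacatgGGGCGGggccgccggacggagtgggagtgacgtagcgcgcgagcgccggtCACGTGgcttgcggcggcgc
Gar1: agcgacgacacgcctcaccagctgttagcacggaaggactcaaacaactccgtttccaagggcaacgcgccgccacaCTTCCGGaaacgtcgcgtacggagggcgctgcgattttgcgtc
Mrto4: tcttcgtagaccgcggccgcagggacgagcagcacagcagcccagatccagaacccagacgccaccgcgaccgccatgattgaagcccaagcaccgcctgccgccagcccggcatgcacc
Dkc1: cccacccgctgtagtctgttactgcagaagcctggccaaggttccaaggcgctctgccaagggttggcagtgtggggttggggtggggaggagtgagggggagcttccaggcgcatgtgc

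The other genes that rose and held an E-box had it just after the start. The 30 bases around it, with the E-box in capitals, are shown for Utp20 (chr10:88826765-88826794, minus strand, 37 bases after the first base of the gene), Ltv1 (chr10:13193092-13193121, minus strand, 28 bases after) and Mybbp1a (chr11:72441347-72441376, plus strand, 40 bases after).
Utp20: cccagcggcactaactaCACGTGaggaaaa
Ltv1: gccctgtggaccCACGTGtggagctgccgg
Mybbp1a: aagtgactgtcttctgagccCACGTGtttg

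Over the 52 genes, the mean of log2(CPM + 0.5) was 5.48 ± 0.019 (SD, n = 3) in PBS-treated HSCs on day 6 after 1 administration and 5.77 ± 0.030 (SD, n = 3) in 5-FU-treated HSCs. After 3 administrations it was 5.47 ± 0.034 (SD, n = 3) with PBS and 5.74 ± 0.043 (SD, n = 3) with 5-FU. On day 21 after 5-FU it was 5.45 ± 0.0089 (SD, n = 3) after 1 and 5.50 ± 0.024 (SD, n = 3) after 3 administrations, and in old HSCs 5.50 ± 0.053 (SD, n = 3). The 6 libraries isolated on day 6 after 5-FU lay between 5.69 and 5.79, above the other 15, which lay between 5.43 and 5.55. The share of all counts held by the 52 genes moved the same way, from 0.525% and 0.524% in the PBS groups to 0.670% and 0.640% on day 6 after 5-FU. It was 0.489% and 0.517% on day 21 and 0.553% in old HSCs. This share weighs each gene by its counts, so the most abundant genes weigh most in it. On day 6 after 1 administration, mean Npm1 went from 706 CPM with PBS to 1236 CPM with 5-FU. Mean Ubtf, which did not pass the threshold, went from 1267 to 1554 CPM. The highest of the 7 group means was on day 6 after 5-FU for 51 genes, 30 of them after 1 and 21 after 3 administrations, and in old HSCs for Polr1e. Of 13571 genes kept over all libraries, 2816 and 2645 had their highest group mean in those same groups.

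**Figure D1:**
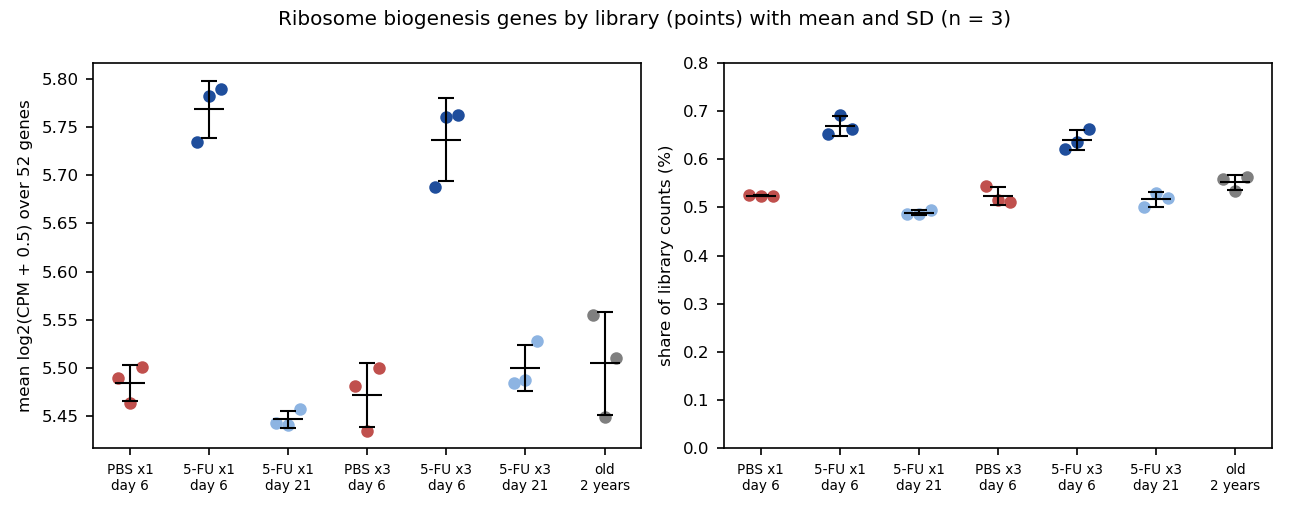
The left panel plots the mean of log2(CPM + 0.5) over the 52 genes and the right panel their share of each library's counts in percent, for the 7 groups. Points are libraries, and bars are the mean with its SD (n = 3). The groups isolated on day 6 after 5-FU, at 5.77 and 5.74 on the left, lie above the other 5, at 5.45 to 5.50.

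**Figure D2:**
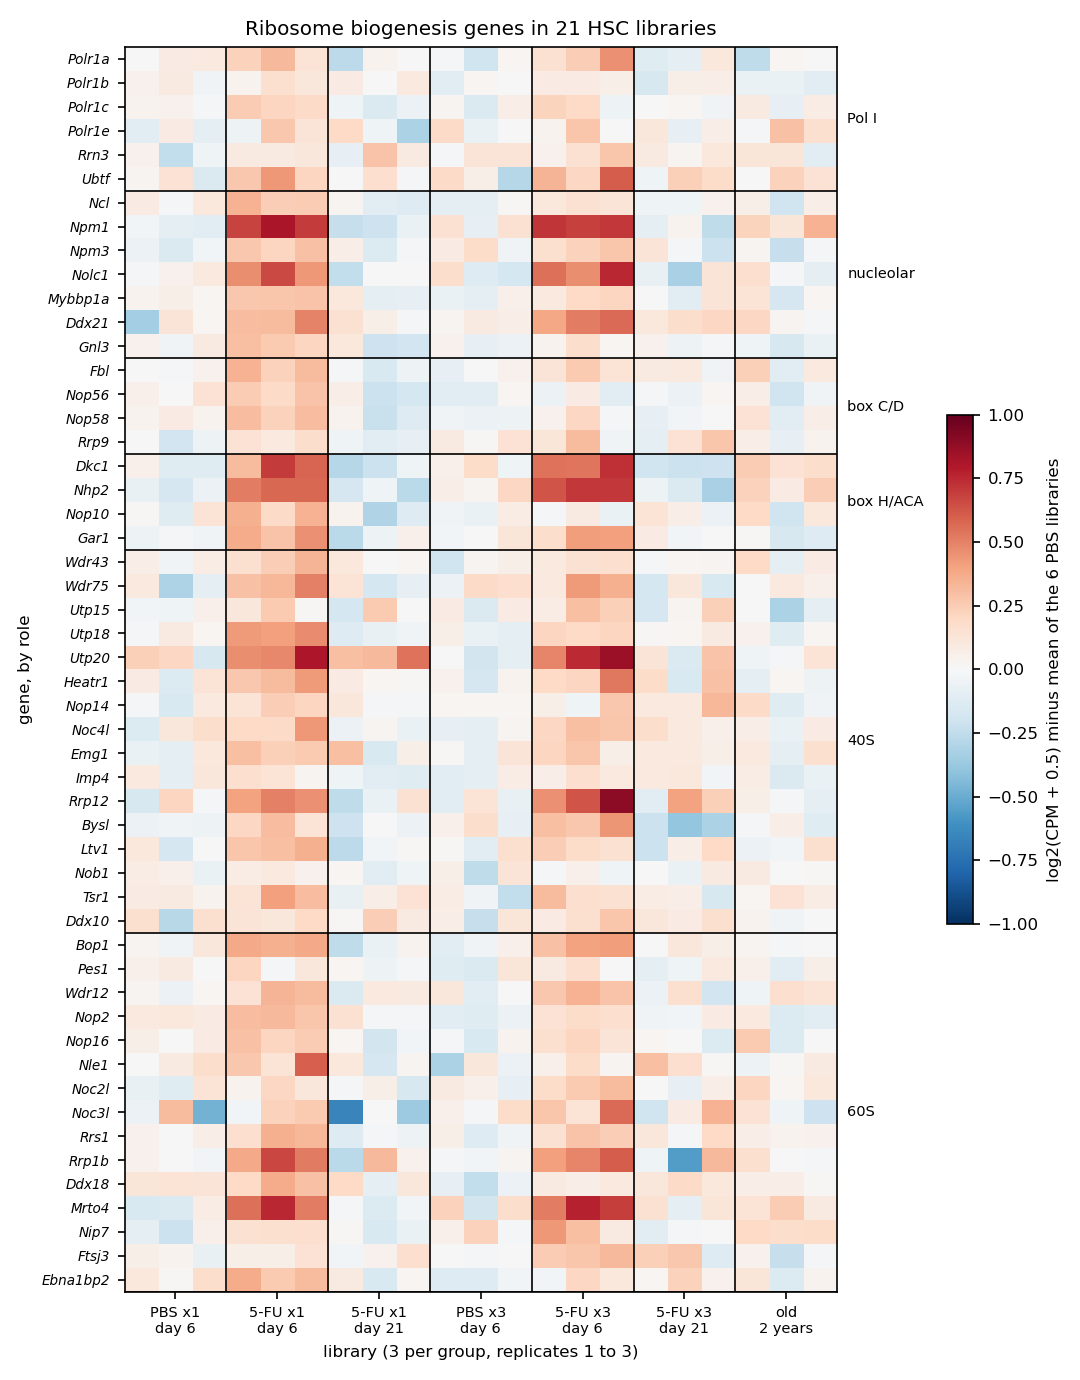
Rows are the 52 genes ordered by role and columns the 21 libraries by group. Color is log2(CPM + 0.5) minus the mean of the 6 PBS libraries. Red in both groups of day 6 after 5-FU is deepest for Npm1, Nolc1, Dkc1, Nhp2, Utp20, Rrp12, Rrp1b and Mrto4. The columns of day 21 and of old HSCs are mostly pale. Exceptions include Rrp1b on day 21 after 3 administrations, at 56.9 to 106 CPM.

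5-FU-treated HSCs, which the study took as cycling cells, were compared with PBS-treated HSCs on day 6 after 1 administration. These groups differed in drug exposure and sort gate as well. Of the 52 genes, 17 rose and 0 fell. Among all 12759 genes tested, 22.2% passed the threshold, 11.5% as higher and 10.6% as lower. The log2 fold change was above 0 for all 52 genes, with a median of 0.23, against a median of -0.00056 over all genes tested, of which 6375 were above 0. The 3 libraries of one treatment did not overlap those of the other, with 5-FU higher, for 42 of the 52, and this held for 24% of all genes tested. None did so with 5-FU lower, as 19.8% of all genes did. After 3 administrations, 12 of the 52 rose and 0 fell, where 18.1% of 12729 genes tested passed the threshold, 9.84% as higher and 8.3% as lower. The log2 fold change was above 0 for 50 of the 52, with a median of 0.19, against -0.01 over all genes, and 32 of the 52 did not overlap with 5-FU higher, as 22.5% of all genes did.

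Transcription of rRNA genes was represented by the polymerase I subunit genes Polr1a, Polr1b, Polr1c and Polr1e, by Rrn3, which recruits the polymerase, and by Ubtf. None of the 6 passed the threshold in either comparison on day 6, with log2 fold changes from 0.06 to 0.29 after 1 and from 0.04 to 0.37 after 3 administrations. Ubtf had the largest value in both. It was at 1280, 1385 and 1136 CPM in replicates 1 to 3 of PBS-treated HSCs and at 1511, 1694 and 1456 CPM in those of 5-FU-treated HSCs after 1 administration. After 3 administrations it was at 1430, 1309 and 1028 CPM with PBS and at 1588, 1451 and 1904 CPM with 5-FU. The treatments did not overlap in either comparison, but the adjusted p was 0.0589 after 1 administration (log2 fold change 0.29, SE 0.0895) and 0.125 after 3 (0.37, SE 0.145). Polr1c, a subunit shared with RNA polymerase III, was at 18.9, 19.1 and 18.2 CPM with PBS and at 22.1, 21.5 and 21.2 CPM with 5-FU after 1 administration (adjusted p = 0.109). After 3 administrations its values of 18.8, 16.7 and 19.3 CPM with PBS overlapped those of 21.7, 21.3 and 17.9 CPM with 5-FU.

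Npm1 encodes nucleophosmin, a histone and ribosome chaperone of the nucleolus that is often mutated in acute myeloid leukemia, and lies at chr11:33152287-33163206 on GRCm38. In replicates 1 to 3 it was at 729, 696 and 694 CPM with PBS and at 1191, 1309 and 1209 CPM with 5-FU after 1 administration. After 3 administrations it was at 829, 703 and 829 CPM with PBS and at 1222, 1197 and 1216 CPM with 5-FU. The treatments stood well apart in both series. The rise was 75% after 1 administration (log2 fold change 0.80, SE 0.059, adjusted p = 0.000805), the smallest p of the 52 genes, and 53.9% after 3 (log2 fold change 0.60, SE 0.078, adjusted p = 0.00484).

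Nolc1 encodes a phosphoprotein of nucleoli and Cajal bodies that binds snoRNPs. It was at 338, 354 and 368 CPM with PBS and at 473, 543 and 462 CPM with 5-FU after 1 administration, and at 388, 313 and 303 CPM against 503, 473 and 578 CPM after 3. The treatments did not overlap, and the log2 fold changes were 0.47 (SE 0.078, adjusted p = 0.00786) and 0.61 (SE 0.120, adjusted p = 0.0168). Mybbp1a, a nucleolar partner of MYB, rose after 1 administration (log2 fold change 0.23, adjusted p = 0.0347) and was at 0.19 with an adjusted p of 0.155 after 3. The helicase gene Ddx21 rose after 3 administrations (0.41, adjusted p = 0.0159) and was at 0.42 with an adjusted p of 0.0572 after 1. For the nucleolin gene Ncl, the nucleostemin gene Gnl3 and Npm3, the log2 fold changes lay between 0.09 and 0.34 in the 2 comparisons and did not pass the threshold.

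Box C/D snoRNPs carry the ribose methylase fibrillarin, encoded by Fbl, on a core of Nop56 and Nop58, and Rrp9 belongs to the U3 particle. Fbl was at 27.0, 26.7 and 27.6 CPM with PBS and at 34.3, 31.6 and 33.5 CPM with 5-FU after 1 administration, when it rose (log2 fold change 0.28, SE 0.073, adjusted p = 0.0324). After 3 administrations it was at 25.3, 26.9 and 27.7 CPM with PBS and at 29.4, 32.3 and 29.5 CPM with 5-FU, again without overlap, but with a log2 fold change of 0.17 and an adjusted p over the threshold. Nop58 was at 44.6, 46.2 and 44.6 CPM with PBS and at 54.0, 51.1 and 54.0 CPM with 5-FU after 1 administration, and its adjusted p of 0.0508 just missed the threshold. After 3 administrations Nop58 was at 42.4, 41.7 and 42.0 CPM with PBS and at 45.0, 50.5 and 43.2 CPM with 5-FU. Of the 4 genes, 1 rose after 1 administration and 0 after 3.

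Box H/ACA snoRNPs guide pseudouridylation, and their proteins also bind the RNA of telomerase. Of their 4 genes, 3 rose after 1 administration and 2 after 3. Dkc1 encodes the catalytic subunit dyskerin, which is mutated in dyskeratosis congenita, and lies at chrX:75095854-75109777. It was at 519, 461 and 460 CPM with PBS and at 624, 814 and 750 CPM with 5-FU after 1 administration, and at 520, 569 and 486 CPM against 731, 726 and 833 CPM after 3. Nhp2, a structural subunit, was at 60.02, 56.4 and 60.7 CPM with PBS and at 90.7, 94.6 and 94.4 CPM with 5-FU after 1 administration, and at 66.2, 64.7 and 73.2 CPM against 98.1, 104 and 103 CPM after 3. The treatments did not overlap for either gene. The log2 fold changes after 1 and 3 administrations were 0.59 (SE 0.106, adjusted p = 0.00993) and 0.52 (SE 0.088, adjusted p = 0.0101) for Dkc1. They were 0.65 (SE 0.068, adjusted p = 0.00194) and 0.56 (SE 0.082, adjusted p = 0.00664) for Nhp2. Gar1 rose after 1 administration (0.41, adjusted p = 0.0201) and was at 0.29 with an adjusted p of 0.108 after 3. The remaining subunit gene, Nop10, was at 0.29 (adjusted p = 0.0933) and -0.01.

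Among the 16 genes of 40S assembly, Utp20, Wdr75, Rrp12, Utp18, Ltv1 and Bysl rose after 1 administration, and Utp20, Rrp12 and Noc4l after 3. Utp20 and Utp18 encode scaffold proteins of the small subunit processome, the large particle that forms on the 5′ part of the rRNA precursor. Utp18 was at 21.6, 23.4 and 22.2 CPM with PBS and at 29.6, 29.3 and 30.6 CPM with 5-FU after 1 administration (log2 fold change 0.40, SE 0.075, adjusted p = 0.0114). After 3 administrations it was at 22.9, 20.9 and 20.6 CPM with PBS and at 25.5, 25.3 and 25.5 CPM with 5-FU (0.22, SE 0.081, adjusted p = 0.105). Utp20 was at 27.4, 26.8 and 20.7 CPM with PBS and at 32.2, 32.6 and 40.9 CPM with 5-FU after 1 administration (0.49, SE 0.143, adjusted p = 0.0484). For both genes the treatments did not overlap in either series. After 3 administrations Utp20 was at 23.1, 20.4 and 21.7 CPM with PBS and at 32.7, 39.1 and 42.3 CPM with 5-FU, the largest change of the 52 genes there (0.79, SE 0.114, adjusted p = 0.00642).

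Rrp12, which acts in export and maturation of the pre-40S particle, was at 23.9, 31.1 and 26.4 CPM with PBS and at 35.4, 38.1 and 36.8 CPM with 5-FU after 1 administration. After 3 administrations it was at 24.9, 29.4 and 25.3 CPM with PBS and at 36.8, 41.6 and 49.98 CPM with 5-FU. The treatments did not overlap, and the log2 fold changes were 0.43 (SE 0.108, adjusted p = 0.0301) and 0.67 (SE 0.133, adjusted p = 0.0172). By log2 fold change, the others that rose after 1 administration were Wdr75 of the processome (0.47, adjusted p = 0.0345) and the late pre-40S factors Ltv1 (0.32, adjusted p = 0.0474) and Bysl (0.26, adjusted p = 0.0432). Noc4l, which binds Nop14, rose after 3 (0.30, adjusted p = 0.043). Wdr43, Utp15, Heatr1, Nop14, Emg1, Imp4, Nob1, Tsr1 and Ddx10 did not pass the threshold in either comparison, and their log2 fold changes lay between -0.02 and 0.33. The lowest in both was Nob1, which encodes the nuclease that makes the end of 18S rRNA.

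Among the 15 genes of 60S assembly, Mrto4, Rrp1b, Bop1 and Wdr12 rose after 1 administration, and Mrto4, Rrp1b, Bop1 and Ftsj3 after 3. Mrto4 holds the place of the ribosomal stalk on the pre-60S particle. It was at 57.7, 57.8 and 67.5 CPM with PBS and at 94.1, 109 and 91.7 CPM with 5-FU after 1 administration, and at 75.2, 56.5 and 72.3 CPM against 91.3, 110 and 104 CPM after 3. The treatments did not overlap, and the log2 fold changes were 0.68 (SE 0.101, adjusted p = 0.00547) and 0.56 (SE 0.130, adjusted p = 0.0277). Reads from its pseudogene could be among these counts. Rrp1b, a nucleolar partner of protein phosphatase, was at 86.8, 84.2 and 82.8 CPM with PBS and at 110, 135 and 121 CPM with 5-FU after 1 administration, and at 83.4, 82.6 and 86.0 CPM against 112, 118 and 129 CPM after 3. Its log2 fold changes were 0.52 (SE 0.088, adjusted p = 0.00834) and 0.49 (SE 0.082, adjusted p = 0.00967), again without overlap.

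Bop1, Pes1 and Wdr12 encode the 3 proteins of the PeBoW complex, which is needed to process the internal spacers of the precursor. Bop1 rose in both comparisons (log2 fold changes 0.33 and 0.39, adjusted p = 0.0192 and 0.0202). Wdr12 rose after 1 administration (0.27, adjusted p = 0.0405) and had an adjusted p of 0.0536 after 3 at the same log2 fold change of 0.27. Pes1 had the smallest log2 fold change of the 15 genes in both (0.05 and 0.11). Ftsj3, a methylase of pre-rRNA, rose after 3 administrations (0.28, adjusted p = 0.0357). Nop2, Nop16, Nle1, Noc2l, Noc3l, Rrs1, Ddx18, Nip7 and Ebna1bp2 did not pass the threshold in either comparison.

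**Figure D3:**
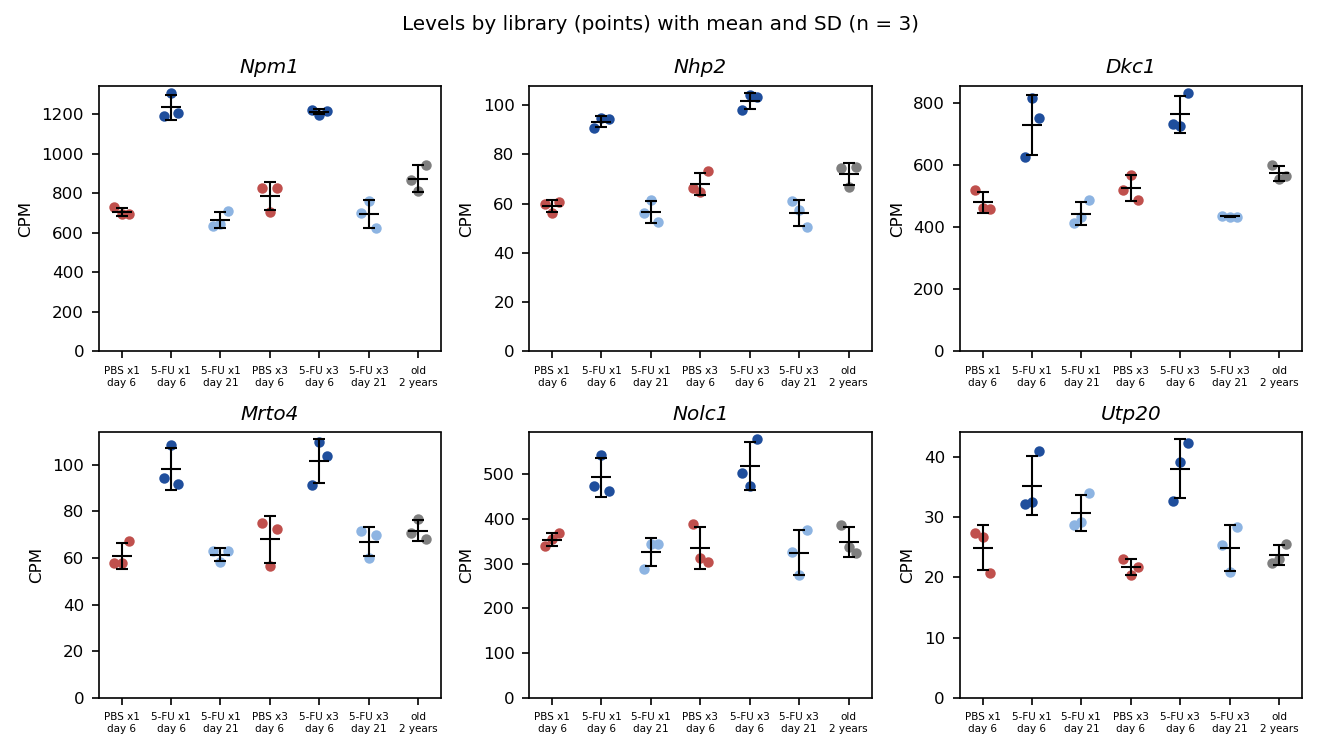
Levels in CPM of 6 genes with large changes are plotted in the 21 libraries (points), with the group mean and SD (n = 3), on axes that start at 0. For Npm1, Nhp2, Dkc1 and Nolc1 the 6 libraries of day 6 after 5-FU lie above all others, while for Utp20 the day 21 libraries after 1 administration overlap with those of day 6.

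The 2 comparisons on day 6 share no library. Npm1, Nolc1, Dkc1, Nhp2, Utp20, Rrp12, Bop1, Rrp1b and Mrto4 rose in both, which is 9 genes, or 52.9% of those that rose after 1 administration and 75% of those that rose after 3. Among all genes tested in both, 683 were higher in both, or 46.6% of those higher after 1 and 54.6% of those higher after 3. Whether the effect of 5-FU differed between 3 administrations and 1 was tested as an interaction over 12 libraries. None of the 52 genes passed (edgeR, 0 of 52, with 1 at an unadjusted p under 0.05, and 0 by DESeq2), where 0.65% of 13227 genes tested did, 0.34% as positive and 0.31% as negative. The interaction ranged from -0.28 for Nop10 to 0.31 for Utp20 on the log2 scale. The genes that rose in only 1 of the comparisons were therefore not shown to differ between them. For Npm1 the interaction was -0.18 (SE 0.095), and for Ftsj3, the gene with the smallest p, it was 0.22 (SE 0.087, adjusted p = 0.269).

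**Figure D4:**
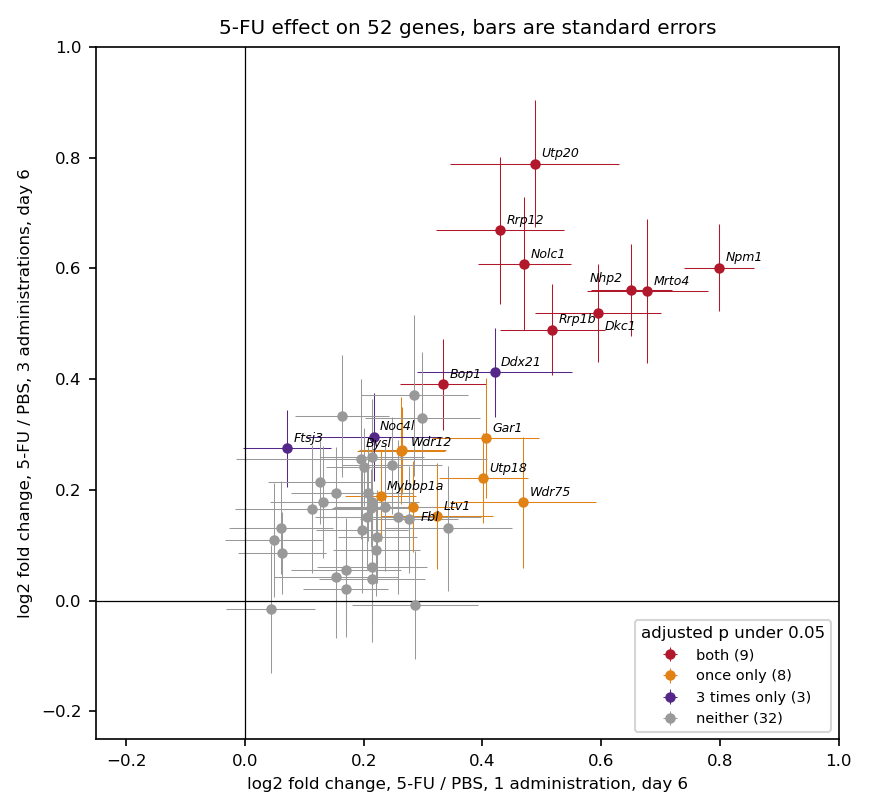
Each point is 1 of the 52 genes, with its log2 fold change of 5-FU over PBS on day 6 after 1 administration on the horizontal axis and after 3 on the vertical axis. Bars are standard errors from edgeR, and color gives the comparison in which the adjusted p was under 0.05. Of the 52 points, 9 passed in both, 8 after 1 only, 3 after 3 only and 32 in neither.

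Fewer genes passed with fewer libraries. When any 1 of the 6 libraries was left out, 7 to 11 of the 52 genes rose after 1 administration, with 7 when replicate 3 of 5-FU was left out and 11 when replicate 3 of PBS was. After 3 administrations 6 to 10 rose, with 6 without replicate 3 of 5-FU and 7 without any 1 of the PBS replicates. Dkc1, Mrto4, Nhp2, Nolc1, Npm1, Rrp1b and Utp18 after 1 administration, and Dkc1, Nhp2, Npm1, Rrp1b and Utp20 after 3, passed the threshold under every alternative processing tried.

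Other genes of the same pathway were read from a list of 111. After 1 administration 25 of the 111 rose and 1 fell, where 11.5% of all genes were higher and 10.6% lower, with a median log2 fold change of 0.16 against -0.00056 over all genes. After 3 administrations 18 rose and 0 fell, where 9.84% of all genes were higher and 8.3% lower, with a median of 0.12 against -0.01. The nuclear exosome, which trims rRNA precursors and degrades their by-products, had 7 of 13 genes higher after 1 and 5 of 13 after 3 administrations. Its gene with the smallest p, Exosc8, was at 49.9 to 64.0 CPM with PBS and at 83.2 to 91.1 CPM with 5-FU after 1 administration (log2 fold change 0.59, SE 0.103, adjusted p = 0.00894), and changed by 0.53 after 3 (SE 0.084, adjusted p = 0.0083). Of the other 40S factors, 4 of 36 rose and 1 fell after 1 administration, a share of risen genes near the 11.5% of all genes, and 8 of 36 rose after 3, against 9.84% of all genes. Pno1, a partner of Nob1, rose in both (0.64, adjusted p = 0.0158, and 0.61, adjusted p = 0.0179). The 1 gene that fell was Rrp36, from 47.8 to 53.6 CPM with PBS to 39.5 to 41.7 CPM with 5-FU (-0.32, SE 0.075, adjusted p = 0.0235), and it was at -0.08 with an adjusted p of 0.723 after 3.

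These counts are to be read against the 11.5% of all genes that were higher after 1 and the 9.84% after 3 administrations. Of the other 60S factors, 10 of 45 rose after 1 and 4 of 45, near the share of all genes, after 3 administrations, and Heatr3, which brings 5S ribosomal proteins to the nucleus, had the smallest p after 1 (0.50, SE 0.071, adjusted p = 0.00472) and an adjusted p of 0.0883 after 3. Of the other polymerase I genes, 3 of 8 rose after 1 and 1 of 8 after 3, and Taf1d, a subunit of the selectivity factor, rose in both (0.48, adjusted p = 0.00902, and 0.36, adjusted p = 0.0234). Of the other snoRNP genes, 1 of 9 rose after 1 administration, Snu13 (0.25, adjusted p = 0.0402), near the share of all genes, and 0 after 3. Genes of the cytosolic ribosomal proteins, which form the subunits with the rRNAs, were read the same way. Of 79, 16 rose and 0 fell after 1 administration (median 0.11), and 1 rose and 2 fell after 3 (median -0.08), with 10.6% and 8.3% of all genes lower.

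On day 21 after 5-FU, 0 of the 52 genes differed from PBS-treated HSCs of day 6 after 1 administration by edgeR. The count at an unadjusted p under 0.05 was 0, and DESeq2 called 0. Of 12647 genes tested, 0.221% passed, 0.0712% as higher and 0.15% as lower. The log2 fold changes ranged from -0.29 to 0.29 with a median of -0.06, and 19 of the 52 were above 0. The groups did not overlap for 6 genes, 1 higher and 5 lower, where 10.3% and 10.8% of all genes did so in those directions. Utp20, with 28.7, 29.2 and 34.1 CPM on day 21, was the gene higher in all libraries than with PBS (0.29, SE 0.135, adjusted p = 0.401), and it was chosen after its values were seen. After 3 administrations 0 of the 52 passed by edgeR, 4 had an unadjusted p under 0.05, and DESeq2 called 1, where 0.0475% of 12632 genes passed, 0.0396% as higher and 0.00792% as lower. These 4 were Dkc1, Bysl and Nhp2 on the lower side (log2 fold changes -0.28, -0.36 and -0.28, adjusted p = 0.203, 0.203 and 0.31) and Ddx18 on the higher side (0.26, adjusted p = 0.274), and they were named after their values were seen. Dkc1 was at 437, 432 and 434 CPM on day 21, all under the PBS libraries. Here 6 genes did not overlap on the higher side and 3 on the lower, where 11% and 10.4% of all genes did.

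From day 6 to day 21 after 1 administration of 5-FU, 23 of the 52 genes fell and 0 rose, where 26% of 12589 genes passed, 12.3% as higher and 13.7% as lower. The log2 fold change was below 0 for all but 1 of the 52, with a median of -0.30, and the days did not overlap with day 21 lower for 40 genes, as for 25.5% of all genes. All 4 box H/ACA genes fell, as did 3 of 4 box C/D genes, 5 of 7 nucleolar genes, 5 of 16 of 40S assembly, 5 of 15 of 60S assembly and, of the polymerase I genes, Polr1c. Npm1 was at 636, 644 and 710 CPM on day 21 (log2 fold change -0.89, SE 0.073, adjusted p = 0.000925), Nhp2 at 56.2, 61.3 and 52.4 CPM (-0.71, SE 0.088, adjusted p = 0.00248) and Dkc1 at 412, 432 and 486 CPM (-0.71, SE 0.114, adjusted p = 0.00594). For these 3 the day 21 libraries lay below all those of day 6. The 5-FU libraries of day 6 are shared with the comparison against PBS, so the fall is not independent of the rise. The sort gate and the column suffix also differed between these days, and the fall cannot be told apart from either. Leaving out 1 library gave 6 to 24 genes that fell. The count was 7, 6 and 6 without replicates 1, 2 and 3 of day 6, and 11 and 10 without replicates 2 and 3 of day 21.

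From day 6 to day 21 after 3 administrations, 9 of the 52 fell and 0 rose, where 19.5% of 12553 genes passed, 8.68% as higher and 10.8% as lower. The median log2 fold change was -0.16, and 25 genes did not overlap with day 21 lower and 1 with day 21 higher, as 21.8% and 19.2% of all genes did. The 9 were Nhp2 (-0.85, SE 0.097, adjusted p = 0.00217), Dkc1 (-0.81, SE 0.078, adjusted p = 0.0013), Npm1 (-0.79, SE 0.087, adjusted p = 0.00187), Nolc1, Bysl, Utp20, Mrto4, Ddx21 and Bop1. On day 21 Nhp2 was at 61.0, 57.3 and 50.5 CPM and Npm1 at 701, 762 and 624 CPM, all under the libraries of day 6. Bysl, which had not passed the threshold against PBS on day 6 after 3 administrations, fell from 49.9, 48.9 and 55.1 CPM to 34.8, 30.8 and 32.4 CPM (-0.64, SE 0.092, adjusted p = 0.00454). The days did not overlap for Bysl. Of its exonic bases, 9.37% overlap Ccnd3 on the opposite strand, so reads of Ccnd3 could be among its counts. In this comparison too the sort gate differed with the day, and the fall cannot be told apart from it.

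Old HSCs were compared with PBS-treated HSCs of day 6 after 1 administration, and 0 of the 52 genes passed by edgeR, where 1.88% of 12855 genes did, 1.44% as higher and 0.443% as lower. At an unadjusted p under 0.05 there were 4, and DESeq2 called 3. The log2 fold changes ranged from -0.14 to 0.31 with a median of 0.01, and 28 of the 52 were above 0. The groups did not overlap for 5 genes on the higher and 3 on the lower side, against 11.1% and 9.52% of all genes. The 4, named after their values were seen, were Npm1, Dkc1, Nhp2 and Nip7. Npm1 was at 867, 810 and 945 CPM in old HSCs, above the PBS libraries (log2 fold change 0.31, SE 0.0703, adjusted p = 0.0828 by edgeR), and DESeq2 gave an adjusted p of 0.00178. Dkc1 was at 599, 554 and 566 CPM (0.25, adjusted p = 0.151 by edgeR and 0.0203 by DESeq2) and Nhp2 at 74.4, 66.9 and 74.97 CPM (0.29, adjusted p = 0.184 by edgeR and 0.0298 by DESeq2). With the PBS libraries after 3 administrations as the control, 0 of the 52 passed. Age and PBS treatment differ together in both comparisons, and the column suffix differs as well in the one with PBS once.

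The 2 PBS groups gave a background for such differences. They differed in the number of administrations, the time since the first one and the column suffix, which cannot be told apart. Between the 2 PBS groups 0 of the 52 genes passed by edgeR, 4 had an unadjusted p under 0.05, and DESeq2 called 0. Of 12806 genes tested, 0.0156% passed, 0.00781% as higher and 0.00781% as lower. The log2 fold changes of PBS 3 times over PBS once ranged from -0.26 to 0.21, with a median of -0.03, and 2 genes did not overlap on the higher and 4 on the lower side (9.96% and 10.1% of all genes).

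Other gene groups moved with these results. The counts below are to be read against all genes tested on day 6. Of these, 11.5% were higher and 10.6% lower after 1 administration, and 9.84% and 8.3% after 3. Of 19 cell cycle genes, 12 rose after 1 and 18 after 3 administrations on day 6, and their summed level was 1994 to 2086 CPM against 2709 to 2931 CPM after 1, and 1739 to 2095 CPM against 3013 to 3535 CPM after 3. It was 1610 to 1960 CPM and 1668 to 1717 CPM on day 21 and 1862 to 2088 CPM in old HSCs, so cell cycle genes and the 52 genes were both highest on day 6 after 5-FU. The part of cycling in the result was not tested. Of 12 HSC markers, none at 0 in any group, 3 rose and 2 fell after 1 administration and 1 rose and 5 fell after 3, and their summed level was 4293 to 4788 CPM against 3505 to 3673 CPM after 1, and 4192 to 4507 CPM against 3065 to 3146 CPM after 3. The sum does not give the direction of each marker, since 3 rose after 1 administration while the sum was lower. Kit, 1 of the 12, is abundant and weighs much in the sum. Its product was used in the sort, with a gate widened to c-Kit-dim cells after 5-FU. Kit was at 989 to 1162 CPM with PBS and 583 to 623 CPM with 5-FU after 1 administration. Myeloid markers (14 genes) were read the same way. Of the 14, 11 and 10 could be tested, 6 fell after 1 and 2 after 3 administrations and 0 rose, with sums of 103 to 155 CPM against 61.0 to 76.0 CPM and of 94.6 to 128 CPM against 54.2 to 79.3 CPM. After 1 administration Ctsg was at 0 in both the PBS and the 5-FU libraries, and Ly6g was at 0 in the 5-FU libraries.

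Erythroid markers (8 genes) summed to 31.5 to 48.7 CPM against 19.7 to 28.2 CPM after 1 administration and to 32.5 to 54.4 CPM against 28.0 to 42.5 CPM after 3. Megakaryocyte markers (7 genes) summed to 165 to 202 CPM against 107 to 113 CPM and to 177 to 185 CPM against 151 to 160 CPM. Markers of stroma and endothelium (6 genes) summed to 148 to 272 CPM with PBS and 130 to 156 CPM with 5-FU after 1 administration. After 3 administrations they summed to 171 to 184 CPM with PBS and 166 to 253 CPM with 5-FU. Lymphoid markers (8 genes) summed to at most 9.72 CPM in any library. Cd3e was at 0 in every library of 6 of the 7 groups, the exception being day 21 after 1 administration of 5-FU. In bulk libraries, more cells of a type and more RNA per cell cannot be told apart.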

How the data were processed

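RNA from sorted HSCs was amplified with the SMART-Seq v4 kit, and Nextera XT libraries were sequenced as single-end reads. The authors aligned them with TopHat2 2.0.13 to mm10 and named Cufflinks 2.2.1 and Cuffdiff for expression. They deposited a table of whole-number read counts per gene symbol, whose counting program is not given in the sources used here. No column of the table lacked a sample (0 columns).

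Counts were tested with edgeR 4.0.16 in R 4.3.3 (filterByExpr, TMM, quasi-likelihood F test, libraries of the groups compared only), with Benjamini-Hochberg adjustment over all genes tested and a threshold of 0.05. There were 8 comparisons of 2 groups and 1 interaction. CPM for display used TMM factors over 21 libraries. The members and lists were chosen with earlier results of these data known. All 52 genes could be named. Values in every library were given for the 2 genes of each role with the smallest adjusted p on day 6 after 1 administration, the 3 highest in PBS, and the 3 with the largest changes in each other comparison. The rule also covered genes past the threshold in opposite directions in 2 comparisons, and Bysl was picked from these. Values were further given for genes marked as chosen or named after their values were seen. Of each role among the other pathway genes, the gene with the smallest adjusted p in each direction was named. Total counts were 22184885 to 38649033 per library, and the floor of 3 counts covers counting error only.

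Alternatives were DESeq2 1.42.0, RLE factors, library size only, 2 other count filters, a replicate block, all 21 libraries in a single fit, PBS 3 times as the control of day 21 after 1 administration and of old HSCs, and leaving out each replicate. Same-numbered libraries did not deviate together (24 correlations between -0.0323 and 0.0437, 0 over 0.1), so replicate numbers were not taken as pairs. On simulated counts for 5-FU against PBS after 1 administration (12853 genes), edgeR recovered 83% of 100 genes changed 2-fold and 72% of 100 changed 0.5-fold, with 6.06% false calls, and DESeq2 92% and 84% with 27.9% false calls. For the interaction (13124 genes), edgeR recovered 58% and 50%, with 6.9% false calls. Changes between 0.5-fold and 2-fold were not simulated, so these shares do not describe the recovery of smaller changes. Near-identical transcripts were found with BLASTN 2.17.0 among GENCODE transcripts of GRCm38, and promoter windows came from RefSeq (GRCm38.p6).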

Additional observations from a re-analysis of the deposited data

How the results depend on the processing

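Of the 52 genes, 17 rose on day 6 after 1 and 12 after 3 administrations of 5-FU, and 0 fell under any alternative tried. With library sizes in place of TMM factors, 11 and 7 rose. Over all alternatives, the median log2 fold change of all genes lay at most 0.111 from 0 among comparisons with PBS. From day 6 to day 21 after 3 administrations it lay at most 0.117 from 0. DESeq2 called 24 and 17. With all 21 libraries in a single fit, 23 rose after 3 administrations, 17 fell from day 6 to day 21 after 3, and 1 gene passed on day 21 after 3 administrations against PBS (Bysl) and 1 in old HSCs (Npm1). DESeq2 called 1 (Dkc1) and 3 (Npm1, Dkc1 and Nhp2) in these last comparisons. The cause was not tested. Leaving out a replicate gave 7 to 11 genes after 1 administration, 6 to 10 after 3, 6 to 24 from day 6 to day 21 after 1 and 6 to 8 after 3, and 0 elsewhere.

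With the replicate number as a block, 10 genes rose after 1 administration and 9 after 3, and 18 and 7 fell from day 6 to day 21. The numbers did not pair the libraries, and the block changed none of the counts of 0.

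Over all genes, the counts past the threshold in the order of 5-FU against PBS on day 6 after 1 and 3 administrations, on day 21 after 1 and 3, and from day 6 to day 21 after 1 and 3 were 2827, 2310, 28, 6, 3272 and 2450. Leaving out a replicate gave 1563 to 1947, 1231 to 1582, 1 to 32, 1 to 4, 1736 to 2978 and 1351 to 1744, the block 2041, 1509, 3, 0, 2652 and 2071, and DESeq2 3685, 3364, 725, 592, 4164 and 3439. For old HSCs the count was 242 (111 to 150 with a replicate left out, 104 with the block, 824 by DESeq2), for the interaction 86 (38 to 170, 55 and 715) and between the PBS groups 2 (0 to 1, 0 and 547). The simulated data above gave DESeq2 the larger share of false calls. For 5-FU against PBS on day 6 after 1 administration they held 100 genes changed 2-fold and 100 changed 0.5-fold. In the data, 2827 genes passed by edgeR in that comparison. The share of false calls depends on how many genes truly change, so the simulated shares cannot be carried over to the DESeq2 calls in these data.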
